A study of Homo sapiens with 8 samples.

Results

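The broadest open regions of the autosomes in HEK293 cells were the 649 peaks of the deposited table whose stop position lay at least 2000 bp beyond their start, and were chosen by this width alone. They made up 649 of 129536 peaks in all and 0.521% of the 124687 peaks on chromosomes 1 to 22. Another 22 peaks of this width on chromosome X and 11 on unplaced or unlocalized contigs were outside the definition. The width of a peak was itself derived by the authors from sequencing reads, so the width and strength given here describe the members and test nothing.

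Accessible chromatin is DNA on which nucleosomes are sparse enough for a transposase to cut, and ATAC-seq counts those cuts. Most strong sites of this kind lie at gene starts, where the polymerase, general transcription factors and remodelling enzymes keep a short stretch free of nucleosomes. Wide stretches often take in a whole CpG island (a GC-rich stretch dense in the dinucleotide CG), a pair of gene starts that face away from each other, or several starts of 1 gene.

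The assay was Omni-ATAC-seq with 75 bp paired-end reads in HEK293, a human embryonic kidney line, carrying eGFP-YAP, the YAP transcriptional co-activator fused to a green fluorescent protein. The vehicle group held 4 libraries, and the sorbitol group held 4 libraries of cells exposed for 1 h to 0.2 M sorbitol, a sugar alcohol that raises the osmolarity of the medium and draws water out of cells. The library labels give vehicle a time of 0 h and sorbitol 1 h. By these labels, sorbitol and time point cannot be told apart in any difference between the groups. Per the series text, the cells of both groups carried eGFP-YAP and had been kept without serum for 1 h, while the sample titles name only HEK293 and the library names contain "wt". The labels do not say whether the line was 1 clone or whether replicates were separate cultures, so the p-values measure the spread between these libraries, which may be technical.

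The gene starts under 4 members are shown because these members carry the range of the findings. ADGRL2, an adhesion receptor of the latrophilin family, and CDH2, the cell adhesion protein N-cadherin, lay under the widest regions with a gene start. GPR161, a receptor of the primary cilium that restrains Hedgehog signalling, lay under a region that was higher after sorbitol, and AGBL5, an enzyme that trims tubulin tails, under one that was lower. Each window runs from 250 bases before to 50 bases after a start, 5′ to 3′ on the gene's strand, from RefSeq on GRCh38.p14, with CG dinucleotides in capitals.
ADGRL2 (chr1:81802203-81802502, plus strand): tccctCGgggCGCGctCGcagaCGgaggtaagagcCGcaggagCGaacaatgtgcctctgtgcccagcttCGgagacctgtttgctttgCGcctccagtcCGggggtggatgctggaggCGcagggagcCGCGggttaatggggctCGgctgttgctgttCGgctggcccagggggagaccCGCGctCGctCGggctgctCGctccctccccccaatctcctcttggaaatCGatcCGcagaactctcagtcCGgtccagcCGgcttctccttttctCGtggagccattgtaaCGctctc
CDH2 (chr18:28177081-28177380, minus strand): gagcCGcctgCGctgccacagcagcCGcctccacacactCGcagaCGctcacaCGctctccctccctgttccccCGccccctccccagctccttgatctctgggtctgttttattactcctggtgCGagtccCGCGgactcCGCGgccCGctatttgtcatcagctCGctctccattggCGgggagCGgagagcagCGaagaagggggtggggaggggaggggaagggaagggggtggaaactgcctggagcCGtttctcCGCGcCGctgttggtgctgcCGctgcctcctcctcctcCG
GPR161 (chr1:168136658-168136957, minus strand): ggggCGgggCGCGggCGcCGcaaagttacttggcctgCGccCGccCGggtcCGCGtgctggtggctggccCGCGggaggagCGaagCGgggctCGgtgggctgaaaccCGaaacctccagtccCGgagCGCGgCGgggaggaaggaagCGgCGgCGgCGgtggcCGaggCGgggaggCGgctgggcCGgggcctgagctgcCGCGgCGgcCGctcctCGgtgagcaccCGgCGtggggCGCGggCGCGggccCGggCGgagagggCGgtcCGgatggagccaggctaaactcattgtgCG
AGBL5 (chr2:27051418-27051717, plus strand): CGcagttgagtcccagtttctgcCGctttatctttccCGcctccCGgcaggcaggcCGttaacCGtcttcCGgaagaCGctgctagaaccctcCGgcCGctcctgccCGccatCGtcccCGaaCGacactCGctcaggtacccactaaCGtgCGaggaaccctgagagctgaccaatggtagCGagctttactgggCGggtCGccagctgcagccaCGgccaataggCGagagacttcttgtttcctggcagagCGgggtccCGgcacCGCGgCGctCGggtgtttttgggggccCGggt
The 300 bases held 26 CG dinucleotides for ADGRL2, 23 for CDH2, 44 for GPR161 and 29 for AGBL5. Their GC content was 65.0%, 67.0%, 78.3% and 64.3% in that order.

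Library totals in peaks ran from 11522266 to 19831471 counts, and no member had fewer than 174 counts in any library. All 9 genes set as HEK293 markers had a peak within 1 kb of a gene end, and 2 of them, VIM and CDH2, had a broad one. Such a peak was also found at 2 of 5 blood genes, 1 of 4 hepatocyte genes, 1 of 3 skeletal muscle genes and 1 of 3 endothelial genes, and none of these was broad. Vehicle 4 and sorbitol 4 stood apart at several members. The clearest case was a region at chr16:46398492-46401619 with ANKRD26P1 as its nearest gene, among the 5 members with the highest mean count. It had 612, 580, 435 and 923 CPM in vehicle 1 to 4. It had 812, 743, 751 and 429 CPM in sorbitol 1 to 4. Vehicle 4 was the highest of all 8 libraries there and sorbitol 4 the lowest, each against the rest of its group, and the peak was not called in edgeR's quasi-likelihood test (log2 fold change 0.10 ± 0.12 SE, Benjamini-Hochberg adjusted p = 0.569). Without vehicle 4 the same fit gave 0.33 with an adjusted p of 0.00426, and without sorbitol 4 it gave 0.26 with an adjusted p of 0.0444.

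Gene ends accounted for most members. Of the 649, 599 (92.3%) lay within 1 kb of an end of a RefSeq gene or of a known start, 30 (4.62%) lay inside a gene and 20 (3.08%) lay between genes. Among 12591 narrower autosomal peaks whose mean count fell in the range of the broad ones, 79.0% were at gene ends, and among all 123993 narrower autosomal peaks tested the share was 20.9%. A start listed in the RefSeq promoter table lay within 1 kb of 477 members (73.5%), against 62.8% of the narrower peaks in the same range of mean counts. That table holds no gene of chromosome 8, where 29 members lie, and 15842 of 20052 protein-coding genes, so the count of starts is a lower limit. In all, 515 members marked 630 protein-coding genes, and 104 of them lay at the ends of 2 or more. The gene table gives ends without exons, so no exon or UTR is assigned.

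The members spanned 2000 to 3621 bp (median 2185 bp). Their mean count over the 8 libraries ran from 256 to 10894, with a median of 823, and 98.8% of narrower peaks had a mean count below that median. Per kilobase of width, the median in vehicle libraries was 26.4 CPM for broad and 7.17 CPM for narrower peaks. Width and mean count went together only loosely among the members (Spearman's rho 0.33 over 649 peaks, which share libraries and depth). The 5 widest were a region inside LOC102724701 on chromosome 21 (3621 bp), ADGRL2 (3602 bp), CDH2 (3311 bp), ELOVL6 (3235 bp), which encodes an enzyme that lengthens fatty acids, and NR3C1 (3151 bp), the glucocorticoid receptor gene.

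ADGRL2 (chr1:81800160-81803762) had 111, 120, 123 and 113 CPM in vehicle 1 to 4. It had 106, 117, 106 and 117 CPM in sorbitol 1 to 4. The groups overlapped, and the log2 fold change of sorbitol over vehicle was -0.066 ± 0.073 (SE; edgeR adjusted p = 0.546). CDH2 (chr18:28175262-28178573) had 115, 123, 128 and 123 CPM against 119, 131, 122 and 134 CPM. Its groups overlapped too (0.056 ± 0.073, edgeR adjusted p = 0.615). ELOVL6 and NR3C1 had log2 fold changes of -0.053 and 0.033 with adjusted p-values of 0.651 and 0.792 in edgeR. Thus none of the 4 widest gene-start regions was called with TMM factors over all 8 libraries. Under other settings CDH2 and NR3C1 were called higher in 2 of 20 alternatives each, and ADGRL2 and ELOVL6 in 1 each.

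The promoter windows overlapped by broad peaks were set beside those of narrower peaks within the same range of mean counts, which were weaker within it. In 4 classes of GC content, the narrower peaks at gene starts had median mean counts of 455 to 515, and the members 776 to 987. The 885 windows under 470 members had a median GC content of 69.7% and a median observed-to-expected CpG ratio of 0.877. The 11617 windows under narrower peaks in the same range of mean counts had medians of 66.7% and 0.856, and all 33725 autosomal windows had 58.7% and 0.581. Motif letters were searched on both strands as exact matches. The ETS core CCGGAAG was in 8.36% of broad windows, 20.1% of the narrower ones in this range and 17.8% of all windows under narrower peaks. CCAAT was in 27.5%, 37.4% and 34.7% in the same order, and the GC box GGGCGG was in 77.4%, 75.5% and 69.9%. Several windows can lie under 1 member and overlap, so these shares are descriptions of letters and not of bound factors.

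The sorbitol comparison was fitted over all peaks with edgeR's quasi-likelihood test, and a peak was called at a Benjamini-Hochberg adjusted p under 0.05. Of the 649 members, 40 (6.16%) were higher and 237 (36.5%) were lower after sorbitol. Among all 129487 tested peaks, 29.1% were called, 16.0% as higher and 13.1% as lower. The 4 sorbitol and 4 vehicle libraries did not overlap in CPM at 262 members, against 26.3% of all tested peaks. The changes were small: the median log2 fold change was -0.099 over the members and 0.012 over all peaks, and the median among the lower members was -0.35. A change of 2-fold or more was found at 6 members, all of them on chromosome 21 below 10 Mb. The cells were measured in bulk, so fewer cells with a region open and fewer cuts per cell cannot be told apart.

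The balance of higher and lower members moved with the scaling of the libraries. With library totals in place of TMM factors, edgeR called 91 members higher and 171 lower. With a loess offset, which removes any trend of fold change with abundance, it called 222 higher and 100 lower, and the median turned to 0.088. With factors from gene-end peaks, which moved the median of all peaks from 0.012 to 0.18, it called 181 higher and 118 lower, with a median of 0.070 that was still below that of all peaks. With factors from contig peaks it called 0 higher and 31 lower, and 1 member was higher at an unadjusted p under 0.05. DESeq2's Wald test, run with its own size factors, called 28 higher and 246 lower. Tested among peaks with a mean count of at least 50 only, 93 were higher and 183 lower.

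By library, the median over the members of log2 CPM relative to the 8-library mean was 0.057, 0.083, 0.074 and 0.026 in vehicle 1 to 4. It was -0.15, -0.027, -0.10 and 0.033 in sorbitol 1 to 4. Sorbitol 4 thus lay above vehicle 4 and the groups overlapped. With both of these libraries left out, the median log2 fold change was -0.16, and 34 members were higher and 296 lower.

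Width went with the direction of the calls up to a point. Autosomal peaks of 200 to under 300 bp were lower in 3.21% and higher in 21.5%. The share called lower was 38.7% among peaks of 1000 to under 1500 bp and 43.5% among those of 1500 to under 2000 bp. It was 36.0% among members of 2000 to under 2500 bp and 39.2% among the 102 members of 2500 bp and more. Within the members, width had a rho of 0.023 with the log2 fold change, and mean count 0.0066.

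**Figure D1:**
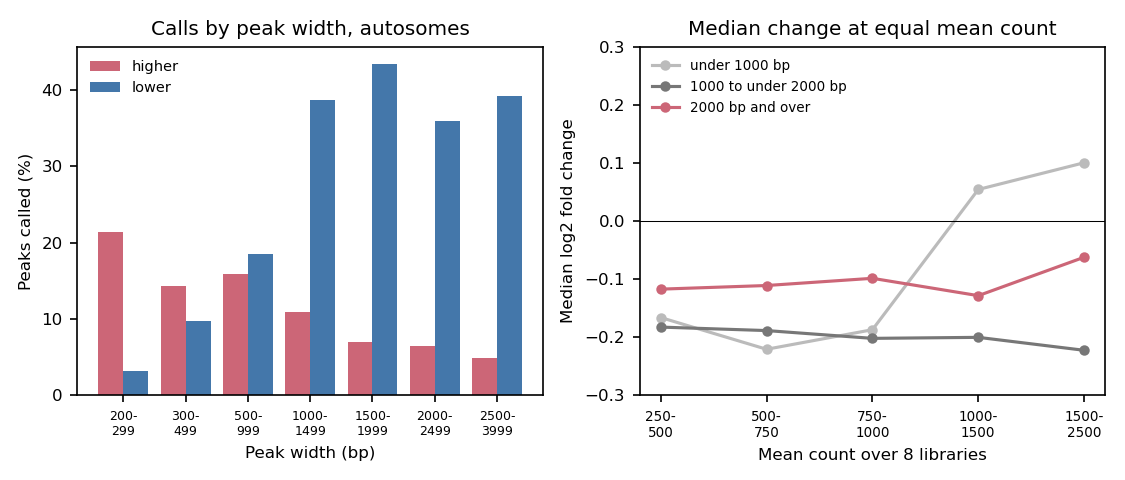
The left panel plots the percentage of autosomal peaks called higher or lower after sorbitol (edgeR adjusted p under 0.05) by peak width in bp, and the right panel the median log2 fold change by mean count over the 8 libraries for 3 width classes, without error bars. Lower calls rise from 3.21% to 43.5% with width and stand at 36.0% and 39.2% in the classes of broad regions. The medians of broad regions stay between -0.13 and -0.062, and those of peaks of 1000 to under 2000 bp between -0.22 and -0.18. Peaks under 1000 bp lie above the broad regions from 1000 counts on, at 0.054 and 0.10, and their rightmost point holds 18 peaks.

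Each member was then set beside all narrower autosomal peaks whose mean count lay within 10% of its own, where at least 20 existed. This was possible for 631 members, with a median of 970 comparison peaks each, and not for the 18 members of very high count. The members lay above their comparison peaks by a median of 0.091 on the log2 scale, with 396 above and 235 below. Among those members 36.5% were lower and 6.34% higher, while on average 48.0% of the comparison peaks were lower and 5.87% higher. The share called lower was thus smaller in broad regions than in narrower peaks with as many counts, a difference given as a description without a test. Beside peaks under 1000 bp alone, this held from 250 to 1000 counts and not above. From 1000 to 1500 counts, 29.7% of 64 such peaks and 35.8% of 162 members were lower. From 1500 to 2500 counts it was 22.2% of 18 such peaks and 26.7% of 45 members.

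The difference was the same in sign in every range of mean count below 2000. It was 0.070 for the 102 members under 500 counts, 0.092 for the 323 from 500 to 1000, and 0.099 for the 201 from 1000 to 2000. It was -0.071 for the 5 members above 2000 counts that could be compared. By library, the median of the members minus that of their comparison peaks was -0.046, -0.060, -0.039 and -0.016 in vehicle 1 to 4. It was 0.019, 0.052, 0.036 and 0.050 in sorbitol 1 to 4. The groups did not overlap, and no p-value is given because the members were chosen with results known.

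The choice of comparison peaks changed the size of the difference. At equal counts per kilobase it was 0.043, and against peaks under 1000 bp only it was 0.00900. Against peaks of the same class, mean count and number of genes nearby it was 0.041, and over gene starts of equal mean count and GC class it was 0.063.

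**Figure D2:**
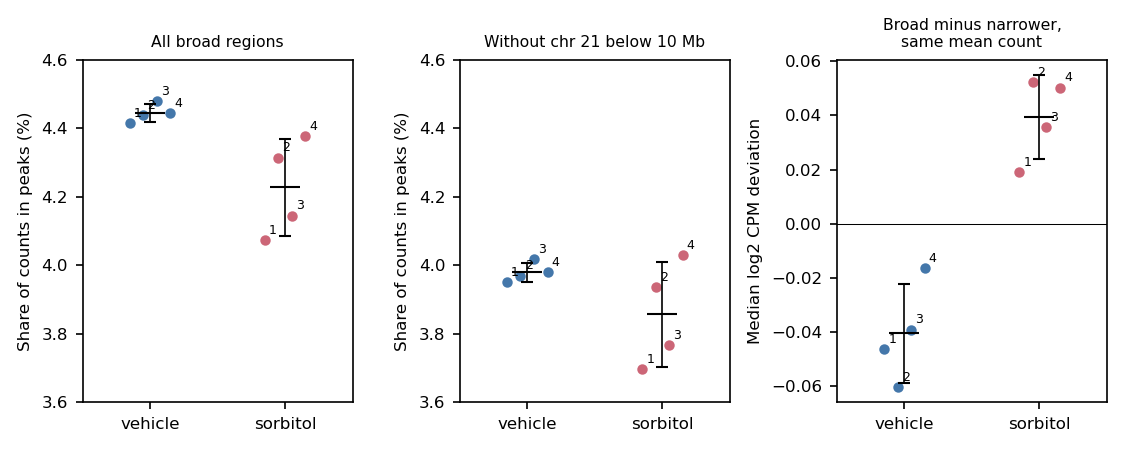
Points are single libraries numbered by replicate, with the mean and SD of 4 per group. The first 2 panels plot the percentage of each library's peak counts that fell in the broad regions, on an axis that does not start at 0, and the third the median log2 CPM deviation of broad regions minus that of narrower peaks of the same mean count: vehicle libraries lie between -0.060 and -0.016 and sorbitol libraries between 0.019 and 0.052.

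The broad regions took 4.44% ± 0.027 (SD, n = 4) of the peak counts in vehicle and 4.23% ± 0.14 (SD, n = 4) in sorbitol libraries. The values were 4.41%, 4.44%, 4.48% and 4.45% in vehicle 1 to 4. They were 4.07%, 4.31%, 4.15% and 4.38% in sorbitol 1 to 4, all below the vehicle libraries. Without the 13 members on chromosome 21 below 10 Mb the shares were 3.98% ± 0.028 and 3.86% ± 0.15 (SD, n = 4 each), and the groups overlapped because sorbitol 4 had 4.03%. The 13 members alone took 0.464% ± 0.0024 in vehicle and 0.370% ± 0.015 in sorbitol libraries (SD, n = 4 each).

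The 5 members with the smallest p-values among those called higher comprised 4 gene starts and a region between genes. The latter (chr13:74974023-74976126, nearest gene LOC107984620) had 30.1, 27.4, 30.3 and 29.1 CPM in vehicle 1 to 4. It had 42.2, 43.9, 41.9 and 41.2 CPM in sorbitol 1 to 4. All sorbitol libraries were above all vehicle libraries (log2 fold change 0.53 ± 0.083 SE, edgeR adjusted p = 1.88e-06).

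GPR161 (chr1:168135494-168137627), whose start is printed above, had 42.8, 41.1, 43.7 and 39.8 CPM in vehicle and 51.9, 60.7, 57.4 and 64.9 CPM in sorbitol libraries (0.49 ± 0.082, edgeR adjusted p = 6.84e-06). CAV1 (chr7:116524451-116526729), the main coat protein of caveolae, small pits of the plasma membrane, had 56.9, 60.2, 60.6 and 53.6 CPM against 69.5, 77.2, 79.9 and 85.3 CPM. Neither pair of groups overlapped, and the log2 fold change of CAV1 was 0.43 ± 0.079 (edgeR adjusted p = 3.26e-05). CAST (chr5:96661200-96663458), which encodes calpastatin, the inhibitor of calpain proteases, had 75.2, 83.6, 83.3 and 72.3 CPM in vehicle libraries. It had 92.5, 108, 102 and 123 CPM in sorbitol libraries, again without overlap (0.44 ± 0.080, edgeR adjusted p = 3.34e-05). ADD3 (chr10:109995363-109997478), an adducin of the spectrin and actin skeleton under the membrane, had 24.4, 21.7, 25.4 and 26.1 CPM against 35.3, 32.4, 30.7 and 37.7 CPM (0.48 ± 0.090, edgeR adjusted p = 4.26e-05). All 5 lost their call with library factors from contig peaks, where the adjusted p ran from 0.167 to 0.290, and kept it under every other setting tried.

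**Figure D3:**
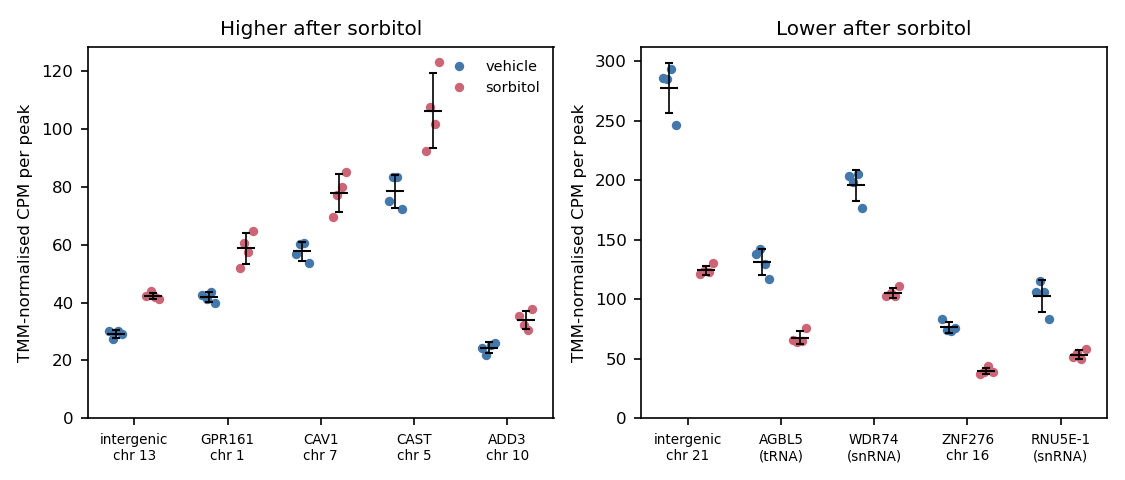
Points are TMM-normalised CPM per peak in single libraries, with the mean and SD of 4 vehicle (blue) and 4 sorbitol (red) libraries, for the 5 members with the smallest p called higher (left) and for 5 called lower (right: 1 of the chromosome 21 regions and the 4 with the smallest p elsewhere). The groups do not overlap at any of the 10 regions, for example 53.6 to 60.6 against 69.5 to 85.3 CPM at CAV1 and 177 to 205 against 102 to 111 CPM at WDR74.

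Members at genes for tRNAs and for small nuclear RNAs were lower in 14 of 15 cases. A gene that RefSeq types as tRNA lay within 1 kb of 12 members, of which 11 were lower and 0 higher, and an snRNA gene, encoding an RNA of the splicing machinery, within 1 kb of 3, all lower. A further member beside a tRNA pseudogene, TRA-TGC9-1 (with COX8CP1, chr6:28633406-28636078), was not counted among them and was lower too (-0.25). Nor was a member at RNU5A-8P, a U5 pseudogene by its symbol, counted, and it was lower by more (-0.90). It was chosen after its values were seen. Of the 443 narrower peaks beside tRNA or snRNA genes, 75.8% were lower. The median log2 fold change of the 15 members was -0.41, and it was -0.47 to -0.19 under the other library scalings. The number called lower depended on them: it was 6 of 15 with contig factors, 9 with the loess offset, 12 with gene-end factors and 13 with library totals, with 0 higher in each. These regions also carry protein-coding starts in some cases, and the counts do not separate the genes under 1 peak.

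WDR74, a ribosome assembly factor, shares its region (chr11:62840193-62842327) with the U2 gene RNU2-2. It had 203, 198, 205 and 177 CPM in vehicle 1 to 4. It had 103, 106, 102 and 111 CPM in sorbitol 1 to 4, without overlap (log2 fold change -0.89 ± 0.073 SE, edgeR adjusted p = 5.54e-14). The other members of this kind were chosen after their values were seen. The AGBL5 region (chr2:27050004-27052247), whose start is printed above, holds tRNA genes for tyrosine and alanine. It had 138, 142, 130 and 117 CPM against 65.4, 64.3, 65.2 and 75.7 CPM, the largest fall of a member outside chromosome 21 (-0.96 ± 0.078, edgeR adjusted p = 5.54e-14). RNU5E-1, a U5 gene (chr1:11907787-11909904), had 106, 115, 106 and 83.1 CPM against 51.2, 54.5, 50.2 and 57.9 CPM (-0.94 ± 0.084, edgeR adjusted p = 1.08e-12). The exception in this group was the region at ELF1 and WBP4 with a tRNA gene, which was not called (-0.13 ± 0.077, edgeR adjusted p = 0.216).

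A member with no such RNA gene and a comparable fall was the region between the ends of ZNF276 and VPS9D1 (chr16:89720268-89722884), also chosen after its values were seen. It had 83.3, 73.7, 73.7 and 75.6 CPM in vehicle and 37.6, 39.1, 43.7 and 38.6 CPM in sorbitol libraries (-0.95, edgeR adjusted p = 2.26e-13). The groups did not overlap.

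Chromosome 21 below 10 Mb held 13 members, of which 6 were lower and 7 not called. In this stretch, 5 regions were 2819 to 2864 bp wide and had nearly the same count in every library: the highest of them exceeded the lowest by a factor of 1.04 in vehicle 2 and of 1.10 in sorbitol 1, the extremes over the 8 libraries. They were also the 5 members with the smallest p-values among those called lower. The region at chr21:7478590-7481454, with LINC03105 as its nearest gene, had 286, 285, 293 and 246 CPM in vehicle 1 to 4. It had 121, 123, 123 and 130 CPM in sorbitol 1 to 4 (-1.16 ± 0.072 SE, edgeR adjusted p = 4.36e-18). The groups lay far apart, and the other 4 regions had log2 fold changes of -1.13 to -1.16. Whether these regions are copies of 1 sequence, between which reads were divided, could not be read from the table, so they should not be counted as 5 separate results.

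The widest and strongest member of all (chr21:6368931-6372552, inside LOC102724701) had 961, 962, 1034 and 881 CPM in vehicle 1 to 4. It had 452, 454, 476 and 494 CPM in sorbitol 1 to 4, with no overlap (-1.03 ± 0.067 SE, edgeR adjusted p = 9.52e-18). By contrast, 6 members that touch ribosomal RNA gene copies (RNA45SN1, RNA45SN2, RNA45SN3 and the microRNA genes MIR6724-1 to MIR6724-3 beside them) were not called. Their log2 fold changes ran from -0.043 to 0.11. RNA28SN2, at the 28S end of 1 copy (chr21:8217485-8220334), had 643, 682, 596 and 641 CPM in vehicle libraries. It had 642, 645, 626 and 574 CPM in sorbitol libraries, which overlapped (-0.043 ± 0.066, edgeR adjusted p = 0.674). Reads from these near-identical copies cannot be assigned to 1 of them with certainty. The call of the whole set depended on scaling: all 6 were called higher with the loess offset and with gene-end factors, 2 with library totals, and 3 without the fourth library of each group. RNA28SN2 then had 0.23 with the loess offset and 0.13 with gene-end factors, RNA18SN3 0.34 and 0.25, and RNA28SN1 0.30 and 0.21. The 6 lower members of the stretch stayed lower under every scaling. The last of the 13 (chr21:9246089-9249040, nearest gene LOC101930100) was named after its values were seen. It had 58.8, 51.4, 48.9 and 84.5 CPM against 67.9, 61.8, 73.8 and 47.2 CPM, and vehicle 4 and sorbitol 4 were the extremes here too (0.042 ± 0.11, edgeR adjusted p = 0.814).

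The number of protein-coding genes within 500 kb on either side went with the change. Of 116 members with 0 to 3 such genes, 17.2% were lower and the median log2 fold change was -0.025. Of 221 with 4 to 7 genes 23.5% were lower, of 197 with 8 to 15 genes 42.6%, and of 115 with 16 or more genes 70.4%, with medians of -0.043, -0.17 and -0.37. Spearman's rho between the number of genes and the log2 fold change was -0.43 over the 649 members, which share libraries, and peaks of 1 neighbourhood share their gene count. It was 0.056 for the GC content of the start windows over the 470 members with one. The number called lower moved with scaling: with contig factors it was 2, 6, 3 and 20 in the 4 classes, and with the loess offset 4, 17, 20 and 59, with 61, 101, 50 and 10 higher. The order of the 4 medians was the same with every other library scaling, although the first 2 turned positive with library totals and gene-end factors and the first 3 with the loess offset.

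Narrower peaks had a like gradient. Among narrower peaks of the same range of mean counts, 15.3%, 27.1%, 43.7% and 72.8% were lower in the same 4 classes. Set beside narrower peaks of the same place (gene end, inside a gene or between genes) with as many counts and genes nearby, the members differed by -0.011, 0.063, 0.028 and 0.069 (log2) in the 4 classes. This could be done for 80 of 116, 205 of 221, 191 of 197 and 108 of 115 members. Higher calls made up 6.90%, 8.60%, 6.09% and 0.870% of the members in the 4 classes, from fewest to most genes, and 23.0%, 11.5%, 6.95% and 2.21% of the narrower peaks. The narrower peaks had fewer counts, with a median mean count of 428 in the first class against 955 for the members, and the difference was not tested. The median number of genes near a member was 7.

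**Figure D4:**
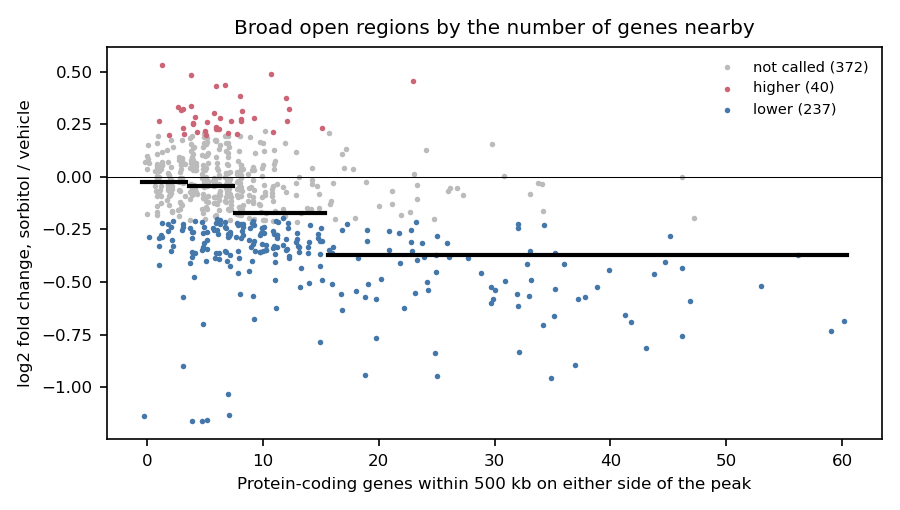
Each point is 1 of the 649 broad regions, with the number of protein-coding genes within 500 kb on either side (spread slightly sideways) on the x axis, the log2 fold change on the y axis, and colour for the edgeR call. Black bars are the medians of 4 classes, which go from -0.025 with 0 to 3 genes to -0.37 with 16 or more; the 6 lowest points are the chromosome 21 regions.

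Members at the ends of 2 or more protein-coding genes were lower in 56 of 104 cases (53.8%) and higher in 4. Narrower peaks at such places were lower in 58.9%. Members at known gene starts without small RNA genes numbered 470, of which 168 (35.7%) were lower and 27 higher, and 37.6% of narrower peaks at known starts were lower. Of 28 members inside genes (chromosome 21 below 10 Mb left out) 12 were lower and 2 higher, and of 15 between genes 1 was lower and 3 were higher. Narrower peaks inside genes were lower in 8.01% and higher in 19.3%, and those between genes in 7.95% and 16.3%. These shares were not matched on counts: all narrower peaks had a median mean count of 43.5, against 594 and 709 for these 2 groups of members. Beside narrower peaks of any place with as many counts, members inside genes were lower in 42.9% against 46.4%. For members between genes it was 6.67% against 46.5%, over the 15 of 20 with enough comparison peaks. These 15 take in the chromosome 21 member nearest LOC101930100 and leave out the region nearest ANKRD26P1. The 5 not compared also include lower regions of chromosome 21 below 10 Mb, and 5 of all 20 were lower. Of the narrower peaks in the range of mean counts of the broad ones, 79.0% were at gene ends. Both contrasts thus leave width and place unseparated. Over gene starts of equal mean count, the members lay above narrower peaks by 0.097 (log2).

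Gene groups were counted from lists of symbols, each gene taken with the peaks within 1 kb of its ends. Developmental transcription factors, which set tissue identity, had 8 broad regions among 92 of 108 genes with any peak, of which 4 were lower, 0 higher and 4 not called. Over all members 36.5% were lower, and of the 143 narrower peaks at genes of this list 58 were lower. The strongest, TBX18 (chr6:84762347-84765093), had 110, 120, 111 and 112 CPM against 101, 111, 103 and 118 CPM, which overlapped (-0.063 ± 0.074, edgeR adjusted p = 0.565). ZIC2 (chr13:99979609-99981953) had 85.7, 94.9, 86.9 and 92.2 CPM against 68.1, 75.2, 64.5 and 75.7 CPM and was lower without overlap (-0.34 ± 0.077, edgeR adjusted p = 0.000563). It lost the call under 2 of the 20 alternatives (edgeR adjusted p of 0.115 and 0.292). The 4 lower regions of the list were 2 with library totals, 1 with gene-end factors, and 0 with the loess offset or contig factors. SOX2, FOXA1, GATA6, HOXD11, MEIS1 and MSX1 were the other genes of this list with a broad region.

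Immediate early genes, which respond to signals within minutes, had 5 broad regions, at FOS, GADD45A, IER3, IER5 and ZFP36L2. ZFP36L2, an RNA-binding protein that promotes mRNA decay, was lower (chr2:43225828-43227920; 77.4, 75.1, 79.2 and 80.4 CPM against 54.1, 64.9, 62.2 and 74.5 CPM; -0.29 ± 0.081, edgeR adjusted p = 0.00575). It lost the call with the loess offset, contig factors and gene-end factors (edgeR adjusted p of 0.195 to 0.408). The other regions of the list were not called, and 18 of 64 narrower peaks of the list were lower. GADD45A, a DNA damage and stress gene, was the strongest (chr1:67684727-67686995), with 172, 176, 175 and 164 CPM against 155, 168, 169 and 189 CPM. Its groups overlapped (-0.013 ± 0.072, edgeR adjusted p = 0.921). Of the 13 osmotic stress genes, 10 had a peak and 0 had a broad one.

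YAP target genes had 3 broad regions, at AMOTL2, FJX1 and GADD45A. FJX1 was lower at the threshold (chr11:35617770-35620031; 49.5, 48.9, 45.0 and 45.5 CPM against 34.6, 43.7, 39.2 and 44.7 CPM; -0.22 ± 0.084, edgeR adjusted p = 0.0449), and lost the call without any 1 of vehicle 1, 2 or 3 (0.128, 0.111 and 0.0519) or sorbitol 1 or 3 (0.182 and 0.0975). Of 33 narrower peaks at YAP target genes, 7 were lower. Heat shock genes had 2 broad regions, both lower, and 8 of their 20 narrower peaks were lower. HSF1, the heat shock transcription factor, shares its region with the ribosome assembly gene BOP1 (chr8:144290490-144292633). It had 35.2, 34.2, 33.6 and 29.8 CPM against 19.2, 24.2, 20.3 and 24.3 CPM, without overlap (-0.59 ± 0.092, edgeR adjusted p = 2.08e-06). HSP90AB1, a chaperone, was lower by less (-0.23 ± 0.083, edgeR adjusted p = 0.0326) and lost the call without vehicle 1 or 2 (0.0811 and 0.0807) or sorbitol 1 or 3 (0.100 and 0.0955).

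Ribosomal protein genes had 3 broad regions, of which that beside RPL23A was lower, as were 63 of 116 narrower peaks. The lower region lay at the start of TLCD1 and overlapped this gene only, with an end of RPL23A within 1 kb. It had 55.0, 57.5, 54.3 and 49.6 CPM against 41.2, 32.4, 33.7 and 38.7 CPM (chr17:28725237-28727437; -0.57 ± 0.085, edgeR adjusted p = 8.57e-07). The strongest, shared by RPL7 and RDH10, was not called (0.033 ± 0.076, edgeR adjusted p = 0.791). Replication-dependent histone genes had 4, of which 3 were lower (17 of 46 among narrower peaks), among them the region shared by H2AC25 and H2BC26 (-0.35 ± 0.074, edgeR adjusted p = 0.000289).

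Of 4 broad regions at splicing factor genes, 3 were lower, against 29 of 49 narrower peaks of the list. The count of 3 fell to 0 with library totals, the filter at a mean count of 50, the loess offset, contig factors and gene-end factors. It was also 0 without vehicle 1 or without vehicle 2, and 2 without any 1 of vehicle 3 or sorbitol 1, 2 or 3. The region shared by HNRNPA2B1 and CBX3 (-0.26 ± 0.088, edgeR adjusted p = 0.0200) lost the call without vehicle 1 or 2 (0.0696 and 0.149) or sorbitol 3 (0.122). HNRNPH1 (-0.22 ± 0.076, edgeR adjusted p = 0.0231) lost it without vehicle 1 or 2 (0.0586 and 0.0727). Chromatin regulators had 4 broad regions, with 34 of 73 narrower peaks lower. Of the 4, KMT2A, a histone methyltransferase, was lower with 72.2, 71.1, 60.8 and 58.9 CPM against 43.9, 50.4, 44.4 and 47.4 CPM (-0.50 ± 0.082, edgeR adjusted p = 5.86e-06). The cohesin gene SMC3 (0.0092 ± 0.076, edgeR adjusted p = 0.946) was the strongest and was not called. Of the 2 at cell cycle and replication genes (28 of 56 narrower peaks lower), the region between PRKDC and MCM4, a subunit of the replicative helicase, was lower (-0.26 ± 0.080, edgeR adjusted p = 0.00963), and that of NDUFAF6 and CCNE2 was not called (-0.036 ± 0.077, edgeR adjusted p = 0.773). The PRKDC and MCM4 region lost its call with library totals, the loess offset, contig factors and gene-end factors (edgeR adjusted p of 0.0517 to 0.461). No broad region on any of these lists was called higher with TMM factors. Each list held 8 broad regions or fewer and 6.16% of all members were higher, so this says little. Narrower peaks were higher in 13 of 64 cases at immediate early, 5 of 33 at YAP target and 9 of 116 at ribosomal protein genes. It was 6 of 143 at developmental, 3 of 19 at osmotic stress, 2 of 46 at histone and 1 of 56 at cell cycle genes. On the other lists it was 0. With the loess offset, the list medians of developmental, immediate early, YAP target, cell cycle, chromatin regulator and histone genes were positive, and those of snRNA, heat shock, ribosomal protein and splicing factor genes negative.

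At the width threshold, values on both sides were mixed. The narrowest members were SKP1 (2000 bp, -0.28 ± 0.10, edgeR adjusted p = 0.0339), a region of POC1B and GALNT4 (2001 bp, -0.19 ± 0.078, 0.0633) and THRB (2001 bp, 0.19 ± 0.078, 0.0560). The peaks just under it, all 1999 bp wide, were at NPEPPS (-0.69), inside LTBP4 (-0.50) and at CDK14 (0.15). SKP1 lost its call without any 1 of vehicle 1, 2 or 3 (0.0931, 0.0786 and 0.0822) or sorbitol 1 or 2 (0.128 and 0.101). The region of POC1B was called without vehicle 4 (0.0487) or sorbitol 4 (0.0228), and THRB without sorbitol 1 (0.0285) or sorbitol 3 (0.0492).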

How the data were processed

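Omni-ATAC-seq had been run on 4 vehicle and 4 sorbitol libraries. The authors deposited raw counts per peak, whole numbers for 129536 peaks. Per the submitters' processing notes the build was hg38 (GRCh38) and the tools included Trim Galore 0.6.10, BWA 0.7.17, SAMtools 1.22, Picard, MACS2 2.2.9.1, bedtools and DESeq2. How peaks were merged, and whether reads or fragments were counted, is not given in the sources used here. Widths are stop minus start as deposited, and coordinates are as in the table.

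The members and gene lists were chosen with earlier results of these data known. Peaks were filtered with filterByExpr (minimum count 10, total 15), which removed 49 of 129536 and no member. TMM factors and the quasi-likelihood test of edgeR 4.0.16 (R 4.3.3) were applied without covariates, with Benjamini-Hochberg adjustment over all 129487 peaks at 0.05. CPM are TMM-normalised, and per-library deviations used log2 CPM with a prior count of 2. Gene ends came from RefSeq (GRCh38.p14) within 1 kb, without strand, and starts and sequences from its promoter windows (250 bases before to 50 after). Scripts were tested on simulated counts. The fit is unpaired because the labels do not say that replicate numbers pair cultures. Same-numbered libraries also did not deviate together (correlations of -8.04e-05, 0.00671, -0.0308 and -0.133). Alternatives were DESeq2 1.42.0, other scalings, filters, widths and comparison peaks, and each library left out. Leaving out both replicates 4, chromosome 21 below 10 Mb or the tRNA and snRNA members, and matching on nearby genes or GC, were chosen after seeing the data.

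Regions named are the 5 widest, the 5 of highest mean count, the 5 with the smallest p in each direction, the 3 on each side of the threshold, and from each list the strongest and that with the smallest p. Library totals of 11522266 to 19831471 counts leave little counting error at members with at least 174 counts per library. PCR copies are not independent molecules, so precision rests on 4 libraries per group.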

Additional observations from a re-analysis of the deposited data

Results flagged for a closer look

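Among 80 groups of 4 libraries examined, 3 had 1 library far from the other 3, where chance gives about 4 at 1 in 20. At the chromosome 21 region nearest LINC03105 (start 7478590), vehicle 4 had 246.36 CPM and the other vehicle libraries 285 to 293. At the region of RNA18SN3 and RNA5-8SN3 on chromosome 21 (start 8392594), sorbitol 4 had 337.9 CPM and the other sorbitol libraries 388 to 398. At SKP1, the narrowest member, vehicle 4 had 18.27 CPM and the other vehicle libraries 21.1 to 21.6. All 3 thus fell on vehicle 4 or sorbitol 4, which stood apart at other members too.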

How the results depend on the processing

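The sign of the median change of the broad regions (-0.099) depended on scaling: it was 0.088 with a loess offset and 0.070 with factors from gene-end peaks, -0.017 with library totals, -0.019 among peaks with a mean count of at least 50, and -0.16 without both replicates 4 or with a width of at least 1500 bp. Members called higher (40) and lower (237) became 91 higher with library totals, 222 and 100 with the loess offset, 0 and 31 with contig factors (edgeR; 1 higher and 78 lower at an unadjusted p under 0.05), 181 and 118 with gene-end factors, 93 higher with the filter at 50, 18 higher at an adjusted p under 0.01, 241 and 1502 at 1500 bp and 5 and 40 at 2500 bp. Leaving out single libraries gave 22 to 51 higher and 196 to 281 lower, with medians of -0.15 to -0.075 and with matched differences of 0.074 to 0.096; sorbitol 4 (22 higher), vehicle 1 (23) and sorbitol 2 (24) moved the higher calls most. Calls over all peaks (37717, of which 20701 higher and 17016 lower) became 14352, 9119 and 5233 with contig factors, 21406, 10312 and 11094 with the filter at 50, 23272, 12239 and 11033 at the stricter threshold, and 33527 higher and 8860 lower with gene-end factors. The difference from narrower peaks of the same mean count (0.091) was 0.034 for a width of at least 1500 bp, 0.043 at equal counts per kb, 0.00900 against peaks under 1000 bp, 0.041 with genes nearby matched and 0.063 with GC matched. The share of counts (sorbitol minus vehicle, -0.217 percentage points) was -1.12 at 1500 bp and 0.152 as a share of broad and narrower peaks of the same mean count range. The cause of these shifts was not tested, apart from the numbers of regions that the width limits and the stricter threshold set themselves.

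Of 780 values of 39 named regions under 20 alternatives, 676 kept their direction and call, 70 lost the call, 26 gained one and 8 reversed. With the loess offset or gene-end factors, ADGRL2 (0.16), ELOVL6 (0.16), TBX18 (0.16), NDUFAF6 and CCNE2 (0.18), GADD45A (0.23 and 0.16) and RNA28SN2 (0.23 and 0.13) were higher. CDH2 (0.22 and 0.29), NR3C1 (0.20 and 0.24), SMC3 (0.18 and 0.23) and the RPL7 and RDH10 region (0.20 and 0.25) gained a higher call under 2 alternatives each. With the replicate number as a block, 248 members were called (31 higher, 217 lower), all among the 277 of the unpaired fit, and the counts over all peaks and over the members stayed within 1.5 times of that fit. The block left 0 of 1 lower regions on the YAP target list, 2 of 3 on the histone list and 2 of 3 on the splicing list. Across scalings, the 3 lower histone regions were 1 with library totals or gene-end factors and 0 with the loess offset or contig factors, and the 2 heat shock regions were 1, 1, 1 and 0 with library totals, gene-end factors, the loess offset and contig factors. Replicate numbers do not pair the libraries in the labels.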

Other observations

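Broad regions were spread unevenly over chromosomes. They made up 1.53% of the peaks of chromosome 21, where 13 of the 26 lay below 10 Mb, 0.775% on chromosome 14, and 0.181% on chromosome 19. On chromosome 17, 22 of 27 members were lower and 0 higher, and their median was -0.40 on the log2 scale, and on chromosome 19, 4 of 6 were lower (-0.57). On chromosome 4, 9 of 50 were lower and 4 higher (-0.0060), and on chromosome 13, 4 of 27 were lower and 3 higher (-0.035). Narrower peaks had medians of -0.30 on chromosome 17, -0.45 on chromosome 19, 0.16 on chromosome 4 and 0.29 on chromosome 13. These values are descriptions, and their relation to gene content was not tested by chromosome.

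Further members were chosen for description after their values were seen. VEGFA, a growth factor of blood vessels (2760 bp), and ADAMTS1, a matrix protease (2916 bp), were lower (log2 fold changes of -0.37 and -0.36). ETV1, an ETS transcription factor (2819 bp), and UTRN, a relative of dystrophin (2815 bp), were higher (0.27 and 0.26). VIM, an intermediate filament protein, had 0.15 and was not called. RAN, the GTPase of nuclear transport, was lower (-0.70) with 5 protein-coding genes nearby. Broad regions had a median of 3 other peaks within 25 kb, as had narrower peaks of the same range of mean counts.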
